A study of Homo sapiens with 12 samples.

Results

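The collagen genes were the 44 protein-coding rows of the count table whose symbol had the form COL, a number, A, and a number (COL1A1, COL17A1), of 58735 genes in the table and 19951 protein-coding genes. The rule used symbols and biotype alone and no measured value, but the family was chosen with earlier results of these data known. All 44 had a count in at least 1 library, 24 were tested in at least 1 comparison after a filter on low counts, and 20 were tested in none. The RNA came from TIGK cells, a human gingival keratinocyte line immortalized by transfection of hTERT, the catalytic subunit of telomerase. All cells were kept in 48 mM glucose, in a base medium without Arg, and received either 500 μM L-Arg (Arg) or none (control) for 24 or 48 h. Poly(A) RNA of each of the 4 groups was sequenced in 3 libraries (A, B, and C), 12 in all.

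Collagens are extracellular proteins in which polypeptide chains wind into a triple helix. A molecule is built from identical chains or from chains of different genes, and for some types the RNA of every partner chain is needed. Fibrillar collagens form the cables of connective tissue and are mostly made by fibroblasts, while type IV collagens form the sheet-like network of the basement membrane on which epithelia rest. Keratinocytes are known for collagen XVII, a transmembrane component of the hemidesmosome, and for collagen VII, the anchoring fibril that ties the basement membrane to the tissue beneath it. During synthesis, prolines and lysines of the chain are hydroxylated in the endoplasmic reticulum, and fibrils are cross-linked outside the cell. Proline itself can be made from Arg through arginase and ornithine aminotransferase.

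The libraries held between 16542243 and 19040964 counts, and a level is given as CPM, counts scaled to a common library size, after TMM scaling over all 12 libraries. Control library B at 48 h stood apart. Its counts differed from those of control libraries A and C at 48 h with a chi-square per degree of freedom of 20.9 and 23.9, while the other pairs within a group lay between 3.66 and 12.5. This library also had the highest mitochondrial share of counts (1.55%, against 0.624% to 1.31% in the other libraries). The collagen calls between pairs of groups that include it are given with and without it. The pathway and marker genes were fitted only with it. The keratinocyte label was checked with 9 markers of basal keratinocytes, which summed to between 36394 and 48334 CPM in every library. Of 10 fibroblast markers other than collagens, FBLN1, DCN, TWIST1, TWIST2, LUM, and PDGFRB had 19693, 9738, 4802, 3044, 281, and 200 counts over all libraries, and PDGFRA, THY1, POSTN, and PRRX1 had 12, 13, 1, and 1. The summed fibroblast list was 111 to 162 CPM in the 24 h libraries and 197 to 227 CPM in the 48 h libraries, most of it from FBLN1 and DCN. Markers of endothelial cells, melanocytes, and leukocytes, 5 of each, summed to at most 6.41, 3.05, and 0.629 CPM.

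Per kilobase of exonic length, COL17A1 (chr10:104031286-104085957, minus strand, GRCh38) was the highest collagen gene of TIGK cells at a mean of 108 CPM per kb, and it was the highest in every library (94.7 to 138 CPM per kb). The anchoring fibril gene COL7A1 (chr3:48564073-48595267, minus strand) followed at 7.24 CPM per kb, and the type IV genes COL4A6, COL4A5, and COL4A1 came next at 6.01, 4.97, and 3.95 CPM per kb. COL17A1 took between 49.9% and 67.4% of all collagen counts in a library (median 57.6%). Below COL17A1 the order was shallow. The next 13 genes, from COL7A1 to COL1A1 (1.84 CPM per kb), had ranges over the 12 libraries that overlapped from each gene to its neighbour. COL7A1 ranged from 3.55 to 11.8, COL4A6 from 3.68 to 8.58, and COL4A5 from 2.29 to 7.88 CPM per kb. The remaining tested genes lay between 1.24 (COL25A1) and 0.0744 CPM per kb (COL4A4).

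**Figure D1:**
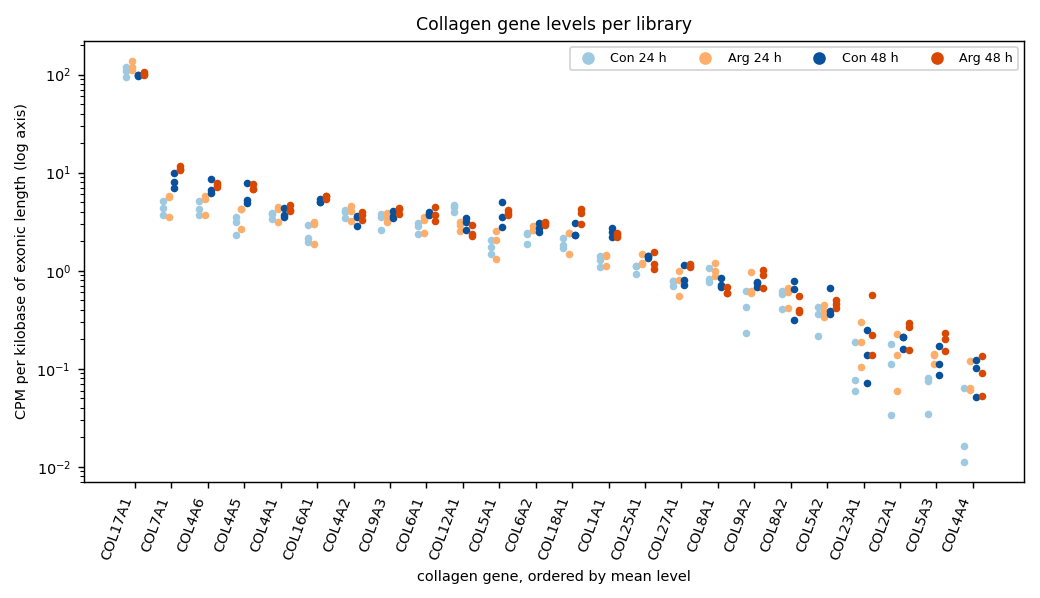
Level of the 24 tested collagen genes in CPM per kilobase of exonic length on a log axis, 1 point per library, colored by group, with genes ordered by their mean level. COL17A1 stands above all others at 94.7 to 138 CPM per kb, and no other collagen gene exceeds 11.8 CPM per kb in any library.

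COL17A1 had 669, 770.3, and 850.4 CPM in control libraries A, B, and C at 24 h, 789, 978, and 845 CPM in Arg libraries A, B, and C at 24 h, 698, 706, and 677 CPM in the control at 48 h, and 750.5, 724, and 697 CPM with Arg at 48 h. The highest value was that of Arg library B at 24 h, while Arg libraries A and C at 24 h lay within the range of the 24 h control. COL4A1 (chr13:110148963-110307233, minus strand), a chain of the common type IV network, had 49.4, 57.5, and 56.1 CPM in control libraries A, B, and C at 24 h, 45.98, 66.6, and 62.6 CPM in Arg libraries A, B, and C at 24 h, 54.2, 64.3, and 52.01 CPM in the control at 48 h, and 59.9, 61.7, and 68.3 CPM with Arg at 48 h. Arg and control overlapped at 24 h and at 48 h, and so did the 24 and 48 h libraries of each treatment. At 48 h, the overlap of Arg and control came from control library B (64.3 CPM), and control libraries A and C lay below every Arg library.

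Several chains were present without a partner that they are known to combine with. COL1A1 reached 26.99 CPM, while COL1A2, its partner in type I collagen, had at most 1 count in any library and 2 counts in all. The type VI chains COL6A1 and COL6A2 were at 3.36 and 2.68 CPM per kb, and the third classical chain, COL6A3, had 27 counts over all libraries and at most 9 in any library. COL9A3 and COL9A2 were at 3.65 and 0.687 CPM per kb, and COL9A1 had 1 count in all. The reads of COL9A3 (3845 counts) and TCFL5 (6739 counts), a gene on the opposite strand that shares 155 exonic bases with it in GENCODE v44, cannot be told apart without strand, so this level is uncertain. Among the type V chains, COL5A1 was at 2.86, COL5A2 at 0.415, and COL5A3 at 0.127 CPM per kb. COL3A1, a fibril gene of soft connective tissue, had at most 4 counts in any library.

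Of the 20 genes that were tested in no comparison, 19 had fewer than 10 counts in every library. COL11A2 was the exception, with at most 15 counts. COL26A1, COL14A1, COL4A3, and COL6A3 reached 9 counts in a library, COL10A1 8, COL28A1 6, COL22A1 5, and COL3A1 4. COL11A1 and COL6A6 reached 3, COL19A1 and COL24A1 2, and COL1A2, COL6A5, COL9A1, COL13A1, COL15A1, COL20A1, and COL21A1 1 count. A difference between groups was not detectable in these genes at this depth.

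Summed over all 44 genes, collagen RNA was at 1223 ± 119 CPM in the control and 1358 ± 179 CPM with Arg at 24 h, and at 1319 ± 74.8 and 1422 ± 35.4 CPM at 48 h (SD, n = 3). Arg and control libraries overlapped at both times, and so did the 24 and 48 h libraries of each treatment. The overlap of Arg and control at 48 h rested on control library B (1401 CPM). Control libraries A and C at 48 h (1302 and 1254 CPM) were below every Arg library (1396 to 1462 CPM). Without COL17A1, the sum was 459 ± 34 and 487 ± 91.4 CPM at 24 h and 625 ± 61.6 and 698 ± 13.9 CPM at 48 h. Every 48 h library (577 to 712 CPM) was then above every 24 h library (382 to 549.8 CPM). By class and without Arg, the summed level at 24 and 48 h was 205 ± 14.4 and 261 ± 29.5 CPM for type IV, 46.6 ± 5.44 and 85.1 ± 17.98 CPM for the fibrillar genes, and 94.6 ± 3.61 and 107 ± 5.31 CPM for the fibril-associated genes. With Arg, the same sums were 226 ± 44.7 and 289 ± 5.02 CPM, 51.0 ± 11.8 and 89.3 ± 3.26 CPM, and 80.7 ± 12.2 and 108 ± 3.12 CPM. Sums were described without a test.

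COL12A1 was the only collagen gene with a called difference between Arg and control at 24 h, and it was lower with Arg. COL12A1 (chr6:75084326-75206051, minus strand) encodes a collagen that decorates the surface of fibrils. It had 50.01, 56.1, and 58.5 CPM in control libraries A, B, and C at 24 h, 31.4, 39.2, and 36.3 CPM in Arg libraries A, B, and C at 24 h, 39.3, 32.6, and 42.9 CPM in the control at 48 h, and 28.2, 29.8, and 36.1 CPM with Arg at 48 h. At 24 h, all Arg libraries lay below all control libraries, while at 48 h the groups overlapped. The overlap at 48 h came from control library B (32.6 CPM), and control libraries A and C lay above every Arg library. The mean of COL12A1 at 24 h was 35.6 ± 3.90 CPM with Arg and 54.9 ± 4.39 CPM in the control (SD, n = 3), which gave a log2 fold change (with its standard error, SE) of -0.62 (SE 0.10, adjusted p = 0.00143) in edgeR's quasi-likelihood test. In all, 0 of the 24 tested collagen genes were higher and 1 was lower. Over all 14279 tested genes, 6.63% were called, 2.79% higher and 3.84% lower, so the share of collagen genes was close to the background. At an unadjusted p under 0.05, 2 collagen genes were higher and 1 was lower, against 1548 higher and 1705 lower of all 14279 genes. DESeq2 called the same 0 and 1 collagen genes at the adjusted p.

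Small differences in the other direction were spread over the rest of the family at 24 h. The log2 fold change was above 0 in 23 of the 24 genes, with a median of 0.19, against 7216 of 14279 genes and a median of 0.0030 over all genes tested. None of these 23 passed the test. The collagen median was 0.32 without Arg library A at 24 h, 0.086 without Arg library B, 0.10 without Arg library C, and 0.11 without control library A. COL9A2 (1.80 ± 0.807 and 3.06 ± 0.883 CPM) and COL4A4, a low basement membrane chain (0.304 ± 0.289 and 0.828 ± 0.341 CPM), had log2 fold changes of 0.76 and 1.43 with adjusted p-values of 0.21 and 0.184. The 3 Arg libraries were above the 3 control libraries in 3 genes (COL6A2, COL25A1, and COL5A3) and below them in COL12A1, against 12.9% and 13.4% of all genes tested. Arg library A at 24 h was low for many collagens, as in COL7A1 with 39.4 CPM against 63.1 and 63.9 CPM. Without this library, COL4A5 was called higher with Arg, so that 1 gene was higher, and COL12A1 remained lower. The number of all genes called at 24 h also moved when a library was left out, as given in the last section.

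At 48 h, no collagen gene passed the test between Arg and control, and COL7A1 and COL18A1 had the smallest p-values. COL7A1 had 41.1, 57.1, and 48.4 CPM in control libraries A, B, and C at 24 h, 39.4, 63.1, and 63.9 CPM in Arg libraries A, B, and C at 24 h, 88.7, 110.3, and 77.9 CPM in the control at 48 h, and 131, 119, and 121 CPM with Arg at 48 h. The 48 h Arg libraries lay above all other libraries, and the next highest was control library B at 48 h. The log2 fold change at 48 h was 0.42 (SE 0.11, unadjusted p = 0.00194, adjusted p = 0.16 by edgeR).

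COL18A1 (chr21:45405137-45513720, plus strand), the basement membrane collagen from which endostatin is cleaved, had 14.5, 18.6, and 15.7 CPM in control libraries A, B, and C at 24 h, 12.6, 20.9, and 20.5 CPM in Arg libraries A, B, and C at 24 h, 19.8, 25.9, and 19.7 CPM in the control at 48 h, and 32.7, 36.3, and 25.5 CPM with Arg at 48 h. At 48 h, control library B was just above Arg library C, and the other Arg libraries were higher than every control library. Its log2 fold change at 48 h was 0.53 (SE 0.15, unadjusted p = 0.00333, adjusted p = 0.177 from the same edgeR test). COL18A1 shares 1563 exonic bases with SLC19A1 on the opposite strand (4760 and 15709 counts over all libraries), so all of its values are uncertain.

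Over the family at 48 h, 0 of the 24 genes were called in either direction, against 0.117% of 14562 genes (0 higher and 17 lower). At an unadjusted p under 0.05, COL7A1 and COL18A1 were higher and COL12A1 was lower (log2 fold change -0.29, adjusted p = 0.327), against 865 higher and 1090 lower of all genes. The log2 fold change was above 0 in 17 of 24 genes with a median of 0.13, and the median of all genes was 0.0018. The collagen median was 0.22 without control library B at 48 h and 0.054 with a correction for exonic length. The outcome turned on control library B at 48 h. Without it, 6 collagen genes were called higher (COL4A1, COL4A5, COL5A1, COL7A1, COL18A1, and COL27A1) and COL12A1 lower, while the calls among all genes went from 17 to 2365. These 2365 genes were not split into higher and lower, so the collagen counts cannot be set against them by direction. DESeq2, edgeR without the filter on low counts, and edgeR with the replicate letter as a block each called 2 collagen genes higher, COL7A1 and COL18A1, whereas the length correction called 0 with or without the block. The part of the mitochondrial share of library B in this difference was not tested.

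**Figure D2:**
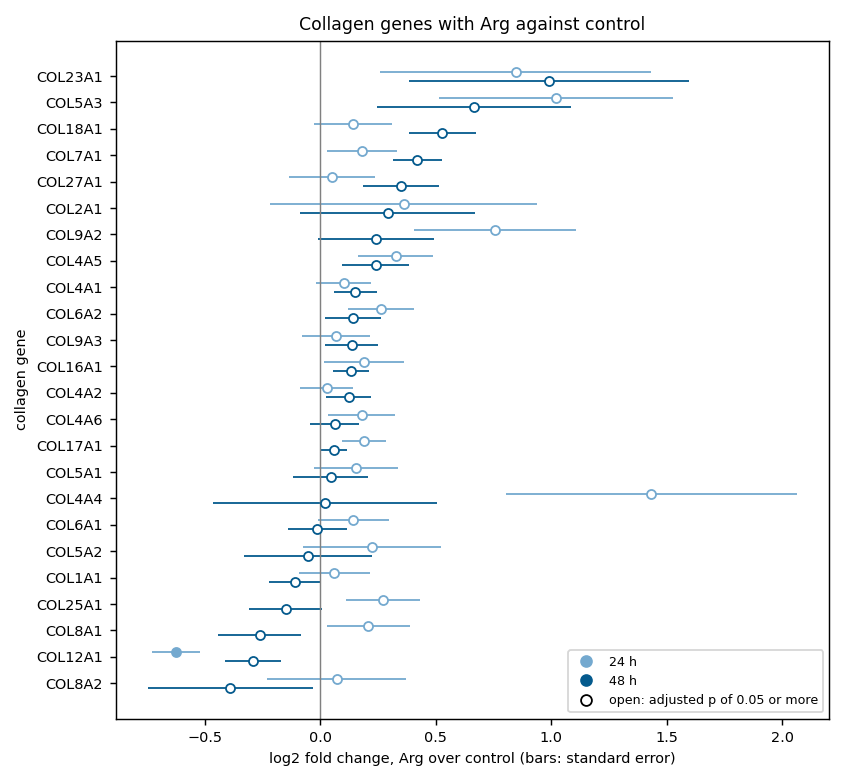
Log2 fold change of Arg over control for each tested collagen gene at 24 h (light) and 48 h (dark), with bars for the standard error and filled points for an adjusted p under 0.05. COL12A1 at 24 h (-0.62) is the only filled point, and the widest bars belong to low genes such as COL4A4 and COL23A1.

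The Arg effect itself was compared between the time points with an interaction term over all 12 libraries, and 0 of the 24 collagen genes passed the test, adjusted or unadjusted, against 0.0132% of 15148 genes at the adjusted p and 1040 genes at the unadjusted p. DESeq2 also called 0 collagen genes. The smallest p was that of COL12A1, whose Arg effect was 0.34 higher on the log2 scale at 48 h (SE 0.17, unadjusted p = 0.056, adjusted p = 0.731 from edgeR). With 3 libraries per group, the interactions of the other genes had standard errors between 0.12 (COL17A1) and 0.93 (COL23A1).

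More collagen genes passed the test between the time points than between Arg and control. From 24 to 48 h without Arg, 7 of the 23 tested collagen genes rose and 1 fell. The genes that rose were the anchoring fibril gene COL7A1, the type IV pair COL4A5 and COL4A6, the fibril-associated COL16A1, the fibril genes COL5A1 and COL1A1, and COL6A1. COL12A1 fell. Of all 14449 genes tested, 19.9% were called, 9.9% higher and 10% lower. The median log2 fold change was 0.46 over the collagen genes and 0.012 over all genes, and 19 of 23 collagen genes had a value above 0. All 48 h libraries were above all 24 h libraries in 12 of 23 genes and below them in 1, against 19.2% and 19.7% of all genes. Without control library B at 48 h, which stood apart, the counts were again 7 and 1 and the genes were the same. A change in the RNA per cell and in the share of cells that make a transcript cannot be told apart in these bulk samples.

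With Arg, 8 of the 24 tested collagen genes rose from 24 to 48 h and 2 fell. COL7A1, COL4A5, COL4A6, COL16A1, COL5A1, and COL1A1 rose again, and COL18A1 and COL27A1 also passed the test. COL17A1 and COL8A1 fell. Among all 14398 genes, 28.3% were called, 14.3% higher and 14% lower. The median log2 fold change of the family was 0.28, against 0.00094 over all genes, with 18 of 24 above 0, and it was 0.17 without Arg library A and 0.55 without Arg library B at 24 h. In 10 genes all 48 h libraries were above all 24 h libraries, and in 2 they were below, against 21.1% and 21.2% of all genes. That a gene passed in one of the treatments and not in the other does not show a difference between them, and the interaction, which tests that difference, was called for no collagen gene.

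**Figure D3:**
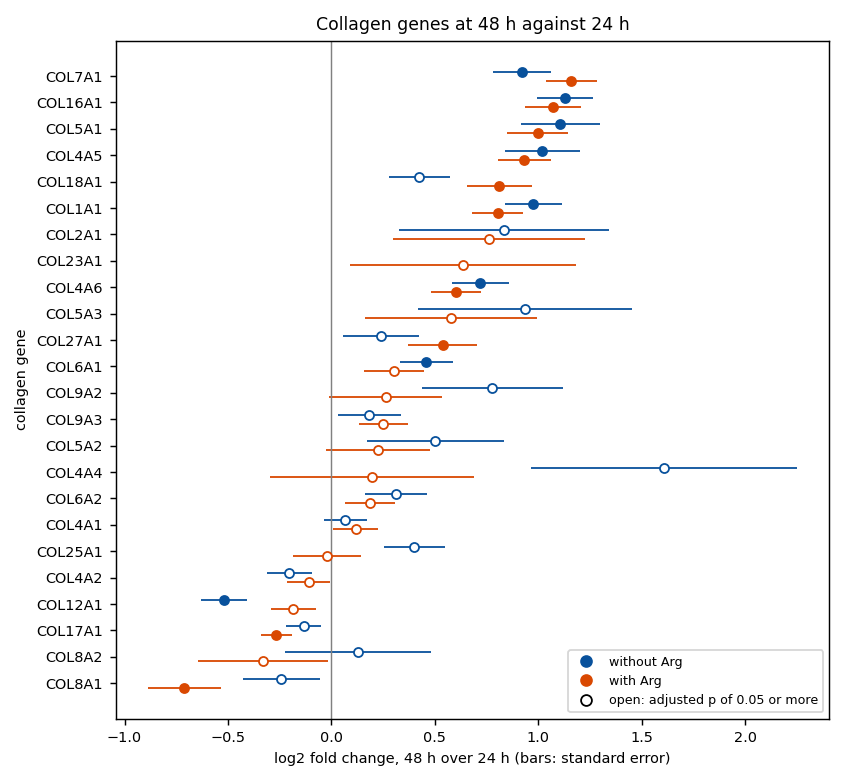
Log2 fold change of 48 h over 24 h for each tested collagen gene without Arg (blue) and with Arg (orange), with bars for the standard error and filled points for an adjusted p under 0.05. COL7A1, COL16A1, COL5A1, COL4A5, COL1A1, and COL4A6 are filled in both treatments, between 0.60 and 1.16, and COL8A1 with Arg is the lowest point (-0.71).

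In the anchoring fibril gene COL7A1, every 48 h library was above every 24 h library in both treatments. The mean went from 48.9 ± 7.995 to 92.3 ± 16.5 CPM in the control and from 55.5 ± 13.96 to 124 ± 6.39 CPM with Arg (SD, n = 3). Its log2 fold change over time was 0.92 (SE 0.14, adjusted p = 0.00222) without Arg and 1.16 (SE 0.12, adjusted p = 1.33e-06) with Arg in edgeR's quasi-likelihood test. This was the largest rise with Arg among the genes called in both treatments.

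Of the type IV genes, COL4A5 and COL4A6 rose over time in both treatments. The 6 type IV genes lie in head-to-head pairs, and the pair on chromosome X, COL4A5 (chrX:108439844-108697545, plus strand) and COL4A6 (chrX:108155607-108439497, minus strand), encodes chains of the epithelial basement membrane network. COL4A5 had 27.2, 41.5, and 37.4 CPM in control libraries A, B, and C at 24 h, 31.4, 51.03, and 50.6 CPM in Arg libraries A, B, and C at 24 h, 62.1, 93.5, and 58.7 CPM in the control at 48 h, and 91.9, 80.8, and 81.00 CPM with Arg at 48 h. COL4A6 had 34.3, 47.8, and 39.8 CPM in control libraries A, B, and C at 24 h, 34.2, 49.9, and 54.02 CPM in Arg libraries A, B, and C at 24 h, 62.3, 79.6, and 58.1 CPM in the control at 48 h, and 73.4, 69.4, and 66.6 CPM with Arg at 48 h. Within each treatment, the 48 h values of both genes lay above the 24 h values, and control library B at 48 h was the highest control library in both. The log2 fold change of COL4A5 was 1.02 (SE 0.18, adjusted p = 0.00429) without Arg and 0.93 (SE 0.13, adjusted p = 2.35e-05) with Arg, and that of COL4A6 was 0.72 (SE 0.14, adjusted p = 0.00589) and 0.60 (SE 0.12, adjusted p = 0.000832).

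The pair on chromosome 13, COL4A1 and COL4A2 (chr13:110305812-110513209, plus strand), did not pass the test over time in either treatment. COL4A2 was at 74.6 ± 7.67 and 64.7 ± 8.23 CPM in the control and at 76.2 ± 12.9 and 70.6 ± 6.35 CPM with Arg. The log2 fold changes were 0.07 and 0.12 for COL4A1 and -0.20 and -0.11 for COL4A2, with standard errors between 0.10 and 0.11. COL4A1 and COL4A2 overlap in the table but share 0 exonic bases in GENCODE v44. The third pair was hardly measured, since COL4A3 had 38 counts in all and COL4A4 was the lowest tested collagen gene. COL4A2 was called lower over time with Arg when library A at 24 h was left out or length was corrected for, and in the control when length was corrected for together with the replicate block. The difference between the pairs was not tested.

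The stretches in front of the type IV pairs and of COL7A1 are shown because the genes of a head-to-head pair share them and only 1 of the 2 pairs passed the test over time. They come from RefSeq (GRCh38.p14) and were taken from the 250 bases before the start, without bases that lie in an exon of GENCODE v44. Capitals mark one of 4 motifs, each searched on both strands. The GC box was searched as GGGCGG. The box that binds NF-Y was searched as CCAAT and is named after these letters. The TATA box was searched as the letters TATAAA. The AP-1 site, which turned up in none of the printed stretches, was searched as TGANTCA. COL4A5 is read on the plus strand (chrX:108439588-108439837) and COL4A6 on the minus strand (chrX:108439498-108439708), and their windows share 121 bases.
COL4A5: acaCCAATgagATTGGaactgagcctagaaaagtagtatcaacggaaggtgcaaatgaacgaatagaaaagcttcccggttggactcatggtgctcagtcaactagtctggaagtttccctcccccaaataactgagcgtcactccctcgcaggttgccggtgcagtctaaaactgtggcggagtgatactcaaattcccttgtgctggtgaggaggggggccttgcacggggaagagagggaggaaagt
COL4A6: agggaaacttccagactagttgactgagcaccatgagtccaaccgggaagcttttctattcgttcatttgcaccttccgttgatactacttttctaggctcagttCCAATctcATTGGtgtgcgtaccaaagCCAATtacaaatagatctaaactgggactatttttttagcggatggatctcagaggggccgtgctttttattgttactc
The RefSeq starts of COL4A5 and COL4A6 are 380 bases apart, and those of COL4A2 and COL4A1 are 127 bases apart. For the second pair, the stretch between the genes is given on the strand of COL4A2 (chr13:110307158-110307257), and COL7A1 is on the minus strand (chr3:48595330-48595579).
COL4A2 and COL4A1: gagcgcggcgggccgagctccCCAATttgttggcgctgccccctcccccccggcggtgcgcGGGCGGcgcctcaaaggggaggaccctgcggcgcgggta
COL7A1: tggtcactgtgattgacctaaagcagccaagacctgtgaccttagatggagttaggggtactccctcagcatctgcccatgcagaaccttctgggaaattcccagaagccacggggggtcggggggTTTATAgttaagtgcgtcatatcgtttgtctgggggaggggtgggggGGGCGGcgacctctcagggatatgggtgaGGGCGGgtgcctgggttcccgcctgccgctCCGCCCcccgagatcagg

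The windows of the 2 pairs differed in base composition. The 250 bases before COL4A5 and COL4A6 were 51.2% and 44% GC, those before COL4A1 and COL4A2 were 77.6% and 78.8%, and those before COL7A1 were 60.8%. Of the 44 collagen genes, 32 had a window, with a median of 65.8% GC against 58% over 35116 windows of all genes. Each collagen gene entered with 1 window, the one nearest its annotated start, while all windows of a gene entered the background. This unlike choice also holds for the motif shares. The window of COL6A6 was 43157 bases from its annotated start. A GC box was found in 18 of 32 collagen windows (42.6% of all windows), a CCAAT box in 9 (32%), a TATA box in 6 (10.7%), and an AP-1 site in 1 (6.6%). The windows of COL4A5 and COL4A6 held 2 and 3 CCAAT boxes and 0 GC boxes. Those of COL4A1 and COL4A2 held 2 and 1 GC boxes and 1 CCAAT box each. The window of COL7A1 held 3 GC boxes and 1 match to the TATA letters, which lies on the opposite strand (TTTATA). All these counts are matches to letters at any position of a window, and whether a match works as a promoter element was not tested. Windows overlap within each pair, so some sites are counted for both genes. The 2 CCAAT boxes of COL4A5 are among the 3 of COL4A6. COL4A1 and COL4A2 share their CCAAT box and 1 GC box.

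Among the fibril genes, COL5A1, whose product sets fibril diameter, and COL1A1 rose in both treatments. COL5A1 (chr9:134641774-134844843, plus strand) had 16.6, 23.02, and 19.6 CPM in control libraries A, B, and C at 24 h, 14.7, 22.98, and 28.2 CPM in Arg libraries A, B, and C at 24 h, 39.4, 56.4, and 31.3 CPM in the control at 48 h, and 43.4, 41.7, and 46.4 CPM with Arg at 48 h. COL1A1 (chr17:50183289-50201632, minus strand) had 10.8, 13.8, and 12.7 CPM in control libraries A, B, and C at 24 h, 10.9, 13.7, and 14.3 CPM in Arg libraries A, B, and C at 24 h, 26.99, 24.5, and 21.6 CPM in the control at 48 h, and 22.6, 21.6, and 23.6 CPM with Arg at 48 h. No 48 h library of either gene overlapped a 24 h library. The log2 fold change over time was 1.11 (SE 0.19, adjusted p = 0.00388) without Arg and 1.00 (SE 0.15, adjusted p = 5.43e-05) with Arg for COL5A1, and 0.97 (SE 0.14, adjusted p = 0.00186) and 0.80 (SE 0.12, adjusted p = 7.46e-05) for COL1A1.

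COL27A1 (chr9:114155560-114312511, plus strand), a fibrillar collagen of cartilage, had 9.85, 10.9, and 10.9 CPM in control libraries A, B, and C at 24 h, 7.69, 14.02, and 11.2 CPM in Arg libraries A, B, and C at 24 h, 10.01, 16.1, and 11.2 CPM in the control at 48 h, and 15.4, 15.8, and 16.6 CPM with Arg at 48 h. Control library B at 48 h was at the level of the Arg libraries, and the other control libraries were not. COL27A1 was called over time with Arg, with a log2 fold change of 0.54 (SE 0.17, adjusted p = 0.0205), and the change without Arg was 0.24 (adjusted p = 0.384). It lost the call without Arg library A at 24 h or Arg library C at 48 h, and with a correction for exonic length. The other tested fibrillar genes, COL2A1, COL5A2, and COL5A3, stayed at or below 4.97 CPM in every library and were called in no comparison.

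Fibril-associated collagens went both ways. COL16A1 (chr1:31652247-31704319, minus strand), which is found near basement membranes, had 19.9, 27.1, and 18.3 CPM in control libraries A, B, and C at 24 h, 17.4, 27.8, and 29.4 CPM in Arg libraries A, B, and C at 24 h, 46.6, 49.5, and 46.3 CPM in the control at 48 h, and 53.5, 53.8, and 49.4 CPM with Arg at 48 h. All 48 h libraries were above all 24 h libraries, and its log2 fold change of 1.13 (SE 0.13, adjusted p = 0.00104) without Arg was the largest among the collagen genes that rose there, with 1.07 (SE 0.13, adjusted p = 8.00e-06) with Arg. COL16A1 shares 117 exonic bases with AC114488.2 on the opposite strand, which had 56 counts in all. COL12A1 moved the other way in the control, where its mean fell from 54.9 ± 4.39 to 38.3 ± 5.23 CPM, a log2 fold change of -0.52 (SE 0.11, adjusted p = 0.00912) that was no longer called without control library C at 24 h. With Arg, the log2 fold change of COL12A1 over time was -0.18 (adjusted p = 0.223).

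The beaded filament gene COL6A1 (chr21:45981737-46005050, plus strand) had 16.4, 15.4, and 12.8 CPM in control libraries A, B, and C at 24 h, 12.97, 18.7, and 17.7 CPM in Arg libraries A, B, and C at 24 h, 19.8, 20.3, and 21.1 CPM in the control at 48 h, and 23.8, 17.2, and 19.6 CPM with Arg at 48 h. The 48 h control libraries lay above the 24 h control libraries, and the Arg libraries overlapped. Its log2 fold change without Arg, 0.46 (SE 0.13, adjusted p = 0.0274), was the smallest of the called rises, and it kept the call in 2 of the 6 fits that left out 1 library. Its neighbour COL6A2 was at 12.02 ± 1.62 and 14.9 ± 1.54 CPM in the control (adjusted p = 0.167).

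COL18A1 passed over time with Arg at a log2 fold change of 0.81 (SE 0.16, adjusted p = 0.000683). Without Arg, the value was 0.43 (adjusted p = 0.0595), and all 48 h control libraries lay above all 24 h control libraries. DESeq2, edgeR without the filter, and the replicate block also called this rise.

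COL17A1 and COL8A1 fell with Arg over time. COL17A1 went from 871 ± 97.2 to 724 ± 26.9 CPM, with all 48 h libraries below all 24 h libraries and a log2 fold change of -0.27 (SE 0.07, adjusted p = 0.0105), and the call was lost without Arg library B at 24 h. In the control its log2 fold change was -0.13 (adjusted p = 0.29). COL8A1 (chr3:99638475-99799226, plus strand), a short-chain collagen that forms open networks, had 7.79, 7.22, and 9.96 CPM in control libraries A, B, and C at 24 h, 9.38, 11.3, and 8.22 CPM in Arg libraries A, B, and C at 24 h, 6.45, 6.68, and 7.93 CPM in the control at 48 h, and 6.46, 5.53, and 5.58 CPM with Arg at 48 h. The mean was lowest in the Arg libraries at 48 h, with a log2 fold change of -0.71 (SE 0.18, adjusted p = 0.00478) over time with Arg and -0.24 (adjusted p = 0.387) without. Its relative COL8A2 was called in no comparison, and neither were the transmembrane genes COL23A1 and COL25A1.

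**Figure D4:**
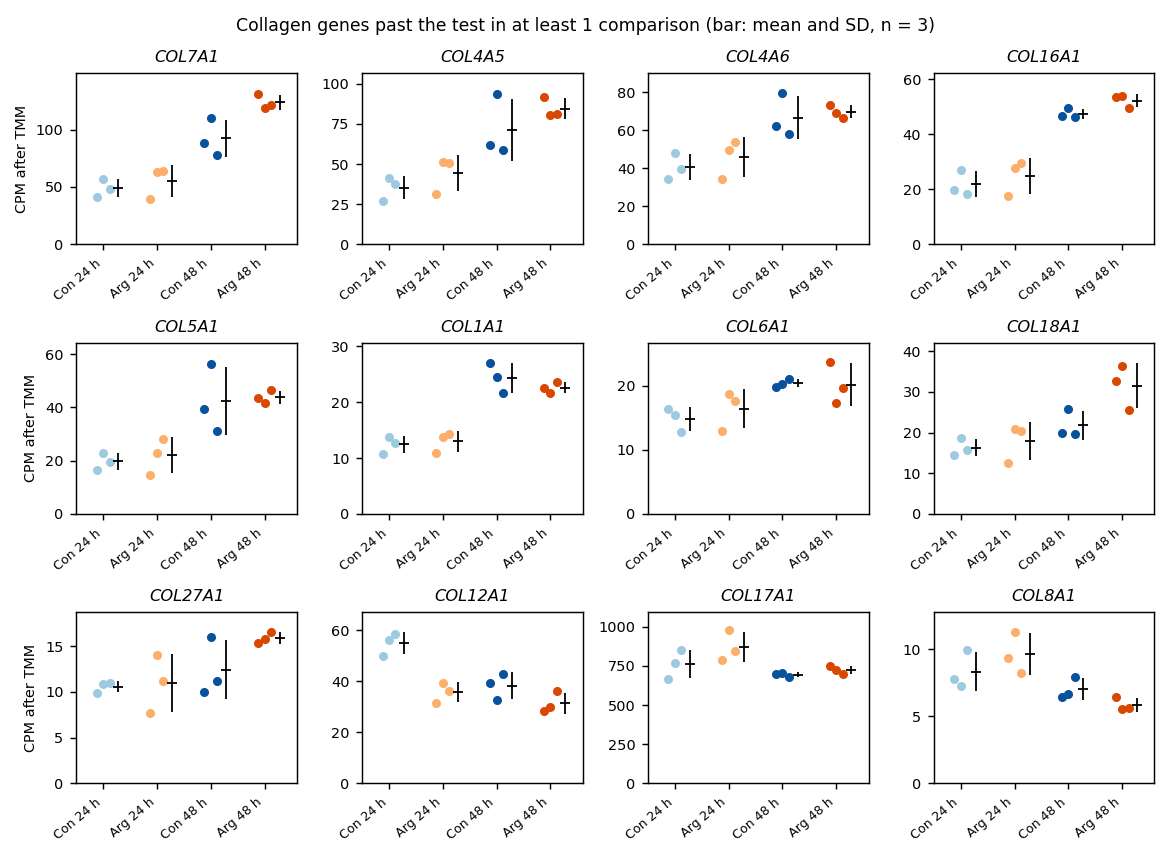
CPM after TMM scaling of the 12 collagen genes called in at least 1 pairwise comparison, 1 panel per gene with its own axis from 0, 1 point per library (A, B, C from left to right) and the mean with SD (n = 3) beside it. The 48 h points of COL7A1, COL4A5, COL4A6, COL16A1, COL5A1, and COL1A1 lie above the 24 h points in both treatments, and those of COL12A1 at 24 h are lower with Arg.

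Longer genes tended to have higher log2 fold changes in these libraries, and collagen genes are long. Across all tested genes, Spearman's rho between length and log2 fold change was 0.049 for Arg at 24 h, 0.16 for Arg at 48 h, 0.13 over time in the control, and 0.20 over time with Arg. The tested collagen genes had a median length of 9006.5 bases, against 4791.5 over all genes of the time comparison with Arg, and 7 of them were at least 10378 bases long, as were 1440 of all 14398 genes. With a correction for length, COL12A1 was again the 1 collagen gene called for Arg at 24 h, 0 were called at 48 h, and the same 7 genes rose and COL12A1 fell over time in the control. With Arg, 7 genes rose, as COL27A1 was no longer called, and 4 fell (COL4A2, COL8A1, COL12A1, and COL17A1).

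Other genes of the collagen pathway were tested from lists of enzymes, receptors, and partners. Among all genes tested, 2.79% were higher and 3.84% lower with Arg at 24 h, 9.9% rose and 10% fell over time without Arg, and 14.3% rose and 14% fell over time with Arg. The lists held 5 to 16 tested genes and were not tested against these shares. Of 16 tested genes for folding and hydroxylation, 0 were higher and 3 were lower with Arg at 24 h. P4HA1, a catalytic subunit of the prolyl 4-hydroxylase, had 40.05, 41.3, and 36.6 CPM in the control and 25.8, 24.4, and 23.8 CPM with Arg, a log2 fold change of -0.67 (SE 0.10, adjusted p = 0.000552). The lysyl hydroxylase PLOD2 (-0.43) and the prolyl 3-hydroxylase P3H2 (-0.37) were lower as well. Over time without Arg, 0 of 16 rose and 4 fell, which were PLOD3, P4HA1, PPIB, and P3H2 with log2 fold changes of -0.42, -0.40, -0.39, and -0.31. With Arg, P4HA2 rose by 0.29 and 4 genes fell, among them PLOD3 (-0.36), FKBP10 (-0.30), and PPIB (-0.26). The median log2 fold change of this list was -0.17 without Arg and -0.068 with Arg, while that of the collagen genes was above 0 in both.

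Genes for secretion, propeptide removal, and cross-linking gave 1 higher and 0 lower of 11 with Arg at 24 h. The gene was LOXL1, a lysyl oxidase that cross-links matrix fibers, with 0.271, 0.451, and 0.289 CPM in the control and 1.18, 1.05, and 1.34 CPM with Arg (log2 fold change 1.80 (SE 0.49, adjusted p = 0.0346)). LOXL1 also rose over time without Arg (1.98), where 1 of 10 rose and 2 fell, PCOLCE2 (-0.96) and LOXL3 (-0.88). With Arg, LOX (1.01) and the collagen export genes MIA2 (0.41) and MIA3 (0.36) rose over time and LOXL3 fell (-0.75).

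Of 5 tested collagen receptor genes, ITGA2, the α2 integrin chain, was lower with Arg at 24 h (-0.83 (SE 0.18, adjusted p = 0.00973)). Over time without Arg, ITGA2 fell (-1.12) and the collagen-binding kinase DDR1 rose (0.81), and DDR1 also rose with Arg (0.69). Among 7 hemidesmosome and laminin genes, which encode the partners of collagen XVII, ITGA6 was lower with Arg at 24 h (-0.40). DST, which encodes the plakin BPAG1, rose over time in both treatments (0.61 and 0.76). ITGA6 fell over time in both treatments (-0.39 and -0.18), CD151 fell without Arg (-0.28), and LAMB3 rose with Arg (0.29).

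Of 8 tested genes for collagen breakdown, MMP1, the interstitial collagenase, had the largest log2 fold changes. MMP1 had 28.4, 18.8, and 59.3 CPM in control libraries A, B, and C at 24 h, 6.29, 5.18, and 2.26 CPM in Arg libraries A, B, and C at 24 h, 2.93, 1.24, and 3.64 CPM in the control at 48 h, and 0.729, 0.892, and 1.04 CPM with Arg at 48 h. The 24 h control libraries were the highest and varied widely, and every Arg library at 24 h was below them. The log2 fold change of MMP1 was -2.96 (SE 0.35, adjusted p = 6.06e-05) with Arg at 24 h, -3.76 (SE 0.42, adjusted p = 0.000884) over time without Arg, and -2.36 (SE 0.37, adjusted p = 9.82e-05) over time with Arg. MMP14, a membrane-bound collagenase, rose over time in both treatments (0.75 and 0.56), and CTSL fell with Arg (-0.21).

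In the proline supply list, ARG2 and OAT, the enzymes on the route from Arg to proline, were lower with Arg at 24 h, with log2 fold changes of -0.84 and -0.35, and ALDH4A1 of proline breakdown was higher (0.54), 1 higher and 2 lower of 8. Over time without Arg, ALDH4A1 rose (0.69) and ARG2 (-0.98), PYCR3 (-0.46), and ALDH18A1 (-0.25), the last 2 of proline synthesis, fell. With Arg, 3 genes fell, among them ARG2 (-0.99) and PYCR3 (-0.54), and PRODH (1.65) and ALDH4A1 (0.38), which break proline down, rose. At 48 h, 0 genes of any of the 6 lists differed between Arg and control at an adjusted p under 0.05 from edgeR. At an unadjusted p under 0.05, 2 genes were higher and 7 lower, against 865 higher and 1090 lower of all 14562 genes. The 6 lists held 16, 11, 5, 7, 8, and 8 tested genes there. They were not refitted without control library B at 48 h, on which the calls among all genes depended.

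**Figure D5:**
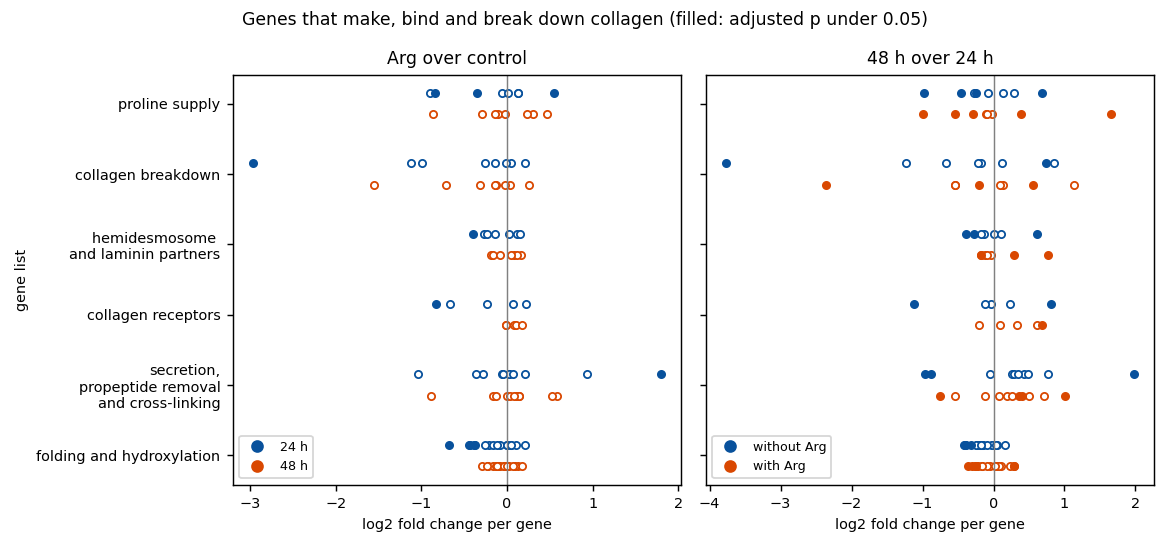
Log2 fold change of each tested gene in the 6 pathway lists, for Arg over control at 24 and 48 h (left) and for 48 h over 24 h without and with Arg (right), with filled points for an adjusted p under 0.05. MMP1 gives the points furthest to the left (-2.96, -3.76, and -2.36), LOXL1 those furthest to the right at 24 h and over time without Arg (1.80 and 1.98), and no 48 h point is filled on the left.

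Some markers of other cell types moved beside the collagen genes over time. The fibroblast marker DCN was also called lower with Arg at 24 h, although its Arg and control libraries overlapped. Its log2 fold change there was -0.70 (SE 0.18, adjusted p = 0.0294 from edgeR). DCN had 21.9, 38.9, and 34.2 CPM at 24 h and 63.3, 76.1, and 60.6 CPM at 48 h in the control, and 18.4, 15.2, and 24.8 and 74.5, 56.2, and 47.2 CPM with Arg. DCN and FBLN1 rose in both treatments (log2 fold changes of 1.08 and 1.61 for DCN and of 0.58 and 0.65 for FBLN1). TWIST2 fell in both (-0.79 and -0.55), and TWIST1 rose with Arg (0.35). LUM had log2 fold changes of 1.06 and 1.11 that did not pass the test (adjusted p = 0.139 and 0.0894 by edgeR), and PDGFRB was called in no comparison. PDGFRA, THY1, POSTN, and PRRX1 stayed near 0, as did COL1A2 and COL3A1. The 5 endothelial markers summed to 0.756 to 3.01 CPM in the 24 h libraries and to 4.08 to 6.41 CPM in the 48 h libraries. Of them, KDR rose in both treatments (1.27 and 1.78) and VWF with Arg (1.59), while PECAM1, TIE1, and CDH5 had 41, 5, and 3 counts in all. The 5 melanocyte markers summed to 1.03 to 1.91 CPM at 24 h and to 1.93 to 3.05 CPM at 48 h. The part of these markers in the collagen results was not tested. Among the basal keratinocyte markers, KRT15, TP63, CDH1, and DSG3 rose over time in both treatments (log2 fold changes from 0.26 to 1.54), and KRT17 fell.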

How the data were processed

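RNA sequencing counts of 12 TIGK libraries were used, 3 per group. The authors cleaned the reads (fastp), aligned them to the GRCh38/hg38 genome (STAR), assigned them to genes (featureCounts), and deposited the raw counts beside gene coordinates and exonic lengths. The annotation release, strand setting, and versions are not given in the sources used here. Groups came from the labels. The study's methods describe 3 replicates of each treatment, grown in multi-well plates, and do not say whether they came from separate passages or days, so p-values measure the spread between these replicates.

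Each pair of groups was fitted with edgeR 4.0.16 in R 4.3.3 (TMM, edgeR's filter on low counts, two-sided quasi-likelihood test, Benjamini–Hochberg adjustment over all tested genes, threshold 0.05), and the interaction with all 12 libraries. Standard errors were the log2 fold change over the root of F. An exact permutation test of 3 libraries against 3 cannot give a p below 0.1. The scripts were tested on simulated data. Levels are CPM after TMM over all libraries, also per kilobase (1000 bases) of exonic length.

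Values in every library are given for collagen genes called in any pairwise comparison and for the 5 highest per length, and at most 4 called genes per pathway list and comparison are named. A few other genes, such as COL9A2, COL4A2, and the marker genes, were named after their values were seen. The collagen genes and the lists were chosen with earlier results of these data known. In these lists, 1 gene was left out and is not reported here. Alternatives were DESeq2 1.42.0, DESeq2 size factors in edgeR, no filter, at least 10 counts in every library, a replicate block, a length correction (lowess, span 0.3, prior count 2) with and without the block, all 12 libraries in a single model, and leaving out each library.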

Additional observations from a re-analysis of the deposited data

How the results depend on the processing

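The comparison of Arg and control at 48 h was the most sensitive. The collagen genes called higher there went from 0 to 2 with DESeq2, to 2 without the filter on low counts, and to 2 with the replicate block, and lay between 0 and 6 when each library was left out, while those called lower lay between 0 and 1. The counts of 6 and 1 came without control library B at 48 h. All genes called at 48 h went from 17 to 185 with DESeq2, 573 without the filter, 184 with the replicate block, 123 with the length correction and the block, and 41 with all 12 libraries in a single model, and to between 6 and 2365 with a library left out. Each of the 6 libraries changed this count by over 1.5 times. At 24 h, leaving out a library gave between 0 and 1 collagen genes higher with Arg, and between 359 and 1529 genes in all. Over time in the control, between 0 and 1 collagen genes were lower with a library left out (0 without control library C at 24 h), 2 were lower with the length correction and the block (COL12A1 and COL4A2), and between 828 and 3304 genes were called in all. Over time with Arg, between 1 and 3 collagen genes were lower with a library left out, 4 with the length correction, and 4 with the length correction and the block. The cause of these changes was not tested. The alternatives gave 423 values for single collagen genes and for the number of all genes with a called interaction. Collagen genes entered only for comparisons where the first edgeR fit gave an unadjusted or adjusted p under 0.05. Of the 423 values, 385 stayed the same, 10 lost and 14 gained a call, and 14 interaction numbers moved by over 1.5 times. None reversed, but with genes chosen for a small p, this outcome was likely beforehand and does not show stability. The letters A, B, and C were not used as pairs, because same-lettered libraries deviated from their group means with correlations between -0.091 and 0.19 across genes and not all were above 0.1. By itself, the block changed no other collagen call than COL7A1 and COL18A1 at 48 h and COL18A1 over time in the control. Added to the length correction, the block newly called COL18A1 higher and COL4A2 lower over time in the control. Collagen genes under about 1 CPM had standard errors too wide for changes of the size seen in higher genes.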
